A study of Mus musculus with 9 samples.

Results

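The 10 genes described here sense and mend the DNA breaks of antibody class switching: Atm, H2afx and Trp53bp1 of the break response, and Xrcc5, Xrcc6, Prkdc, Dclre1c, Lig4, Xrcc4 and Nhej1 of non-homologous end joining. They were chosen by name, and all 10 were found, each once, among the 23700 entries of the gene tables. The study sequenced RNA of splenic germinal center B cells in 9 libraries of about 10000 sorted cells each. C57BL/6 recipients had been given equal parts of 2 kinds of donor B cell, Foxo1(+/+) CD45.1/1 and Foxo1(f/f) CD45.1/2. Both were heterozygous (KI/+) for ERT2cre, a Cre recombinase that tamoxifen activates, and for B1-8hi, an antigen receptor gene for the hapten NP. The mice were immunized with NP-CGG in alum on day 0 and fed tamoxifen on days 7 to 9, so all groups had received the drug and carried the recombinase, and cells were sorted on day 12.

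The 3 groups had 3 libraries each. The light zone group (LZ) held Foxo1(+/+) cells with high CD86 and low CXCR4, and the dark zone group (DZ) held Foxo1(+/+) cells with low CD86 and high CXCR4. The Foxo1-deficient group held Foxo1(f/f) germinal center cells sorted without the CD86 and CXCR4 gates, so genotype and gate change together in both comparisons with it and cannot be told apart. The labels give these cells CD45.1/2 but a CD45.2-negative gate. The labels do not tie replicates to animals or cultures, and the p-values therefore speak only of the spread among these libraries, which may be technical.

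Class switching starts when DNA in the switch regions of the antibody heavy chain locus is damaged, and the damage is turned into double-strand breaks. The kinase ATM senses a break and marks the nearby histone variant H2AX, and 53BP1, the product of Trp53bp1, gathers there and protects the ends from resection. The Ku dimer of the Xrcc5 and Xrcc6 products binds the ends, the kinase DNA-PKcs (Prkdc) joins it and activates the nuclease Artemis (Dclre1c), and ligase IV (Lig4) with its partners XRCC4 and XLF (Nhej1) seals the break. The dark zone of a germinal center is where B cells proliferate, and the light zone is where they are selected by antigen and T cell help.

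Foxo1, the targeted gene, was checked first. Its FPKM was 14.8 to 24.5 in the 6 wild-type libraries and 0.808 to 3.01 in the Foxo1-deficient ones, and it fell by 2.82 on the log2 scale against LZ (limma, adjusted p = 0.00113) and by 3.01 against DZ (adjusted p = 0.000542). Between 11229 and 12495 of the 23700 entries were above 0 in a library, and the depth estimated from the intervals was 0.864 to 1.13 times the median library's (the median over genes of each library's ratio). Foxo1-deficient replicate 3 stood apart: of 9033 well covered genes it listed 233 at 0, against 9 to 67 in the other libraries. Of the tested genes 56 were higher and 138 lower in DZ than in LZ, or 133 and 101 under median centring and 89 and 119 under quantile normalization. Against DZ, 210 were higher and 75 lower in Foxo1-deficient cells, or 181 and 225 under median centring and 219 and 141 under quantile normalization. Against LZ, 69 were higher and 87 lower, or 44 and 15 with no filter on low values, and 99 and 63 with no filter but without genes at 0 in every library.

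No member of the group passed the test in any comparison. The values are FPKM (fragments for each kilobase of transcript, scaled to the size of the library), and the test was limma on log2(FPKM + 1) with Benjamini-Hochberg adjustment over 10004 genes, at a threshold of 0.05. All 10 members passed the filter on low values, which kept genes that reached an FPKM of 1 in 3 or more libraries. From LZ to DZ 0 of 10 members passed, against 1.94% of all genes tested (0.56% higher in DZ and 1.38% lower). At an unadjusted p under 0.05 there were 3 members, against 15.4% of all genes. Against LZ, 0 of 10 passed in Foxo1-deficient cells (2 unadjusted), against 1.56% of all genes (0.69% higher, 0.87% lower and 13.4% unadjusted). Against DZ, 0 of 10 passed (1 unadjusted), against 2.85% of all genes (2.1% higher, 0.75% lower and 16.3% unadjusted). The count was also 0 in each comparison with voom weights, another limma method, and from LZ to DZ it was 1 under quantile normalization and 1 under median centring (H2afx in both). A p that misses the threshold does not show that the groups were alike.

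Lig4, the ligase that closes the break, and Trp53bp1, which protects its ends, differed between the zones in opposite directions with no overlap of libraries. With H2afx they were the 3 members with an unadjusted p under 0.05. The promoters of Lig4 and Trp53bp1 are shown for that reason. Neither gene passed after adjustment (limma, adjusted p = 0.129 and 0.265). DZ lay wholly above LZ, as for Lig4, in 5.16% of all tested genes, and wholly below it, as for Trp53bp1, in 17.1%. RefSeq windows of GRCm38.p6, another build than the mm9 of the expression values, were matched for 8 of the 10 genes and not for H2afx and Prkdc. Each window is the 250 bases before an annotated start, on the minus strand for both genes. The table gives Lig4 2 starts, with windows at chr8:9976312-9976561 and chr8:9977681-9977930, and the Trp53bp1 window is chr2:121271408-121271657. Capitals mark an exact match to the motif of NRF1, a regulator of housekeeping promoters.
Lig4 downstream start: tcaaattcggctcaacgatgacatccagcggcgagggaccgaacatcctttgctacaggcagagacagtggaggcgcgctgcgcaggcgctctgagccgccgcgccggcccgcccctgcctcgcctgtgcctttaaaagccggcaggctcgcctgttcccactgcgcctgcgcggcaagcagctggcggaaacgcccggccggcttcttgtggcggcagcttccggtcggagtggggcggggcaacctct
Lig4 upstream start: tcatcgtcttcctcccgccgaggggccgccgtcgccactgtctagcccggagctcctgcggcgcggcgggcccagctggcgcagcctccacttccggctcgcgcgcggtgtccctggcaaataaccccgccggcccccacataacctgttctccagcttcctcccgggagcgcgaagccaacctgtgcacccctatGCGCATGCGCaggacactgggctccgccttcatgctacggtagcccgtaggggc
Trp53bp1: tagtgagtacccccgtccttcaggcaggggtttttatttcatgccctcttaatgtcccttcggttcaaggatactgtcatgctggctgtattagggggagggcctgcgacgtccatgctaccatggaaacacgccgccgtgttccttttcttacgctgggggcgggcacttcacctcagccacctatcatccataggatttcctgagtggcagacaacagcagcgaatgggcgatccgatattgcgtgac

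The windows of the 2 Lig4 starts were 68.4% and 70.0% G and C, that of Trp53bp1 was 54.4%, and the median of 32851 windows in the table was 52.4%. Exact matches were sought on both strands for 3 motifs. The Foxo motif, GTAAACA or ATAAACA, was in 7.1% of all windows and in 0 of the 9 member windows. The E2F motif, TTTCGCGC or TTTGGCGC, was in 0.654% of all windows and in 0 of the 9. The NRF1 motif, whose letters are the capitals above and read the same on both strands, was in 0.782% of all windows and in 1 of the 9, the Lig4 window shown above, from base -54 to -45. These matches describe letters in the windows only, and the libraries do not measure from which Lig4 start the RNA came.

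H2afx stood far above the other members. The mean FPKM of LZ was 84.0 ± 7.25, that of DZ 124 ± 24.3 and that of Foxo1-deficient cells 114 ± 15.4 (SD, n = 3). The other 9 members had mean FPKM between 1.52 (Nhej1) and 13.0 (Xrcc6) in LZ. Xrcc6 came second in all 3 groups, with means of 13.0, 12.3 and 11.7 in LZ, DZ and Foxo1-deficient cells. Nhej1 came last in all 3. Between these, neighbours in the order mostly overlapped: in DZ each gene from Xrcc6 down to Nhej1 overlapped with the next one, and in LZ the breaks in the order lay below H2afx, below Xrcc6 and between Trp53bp1 and Dclre1c.

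**Figure D1:**
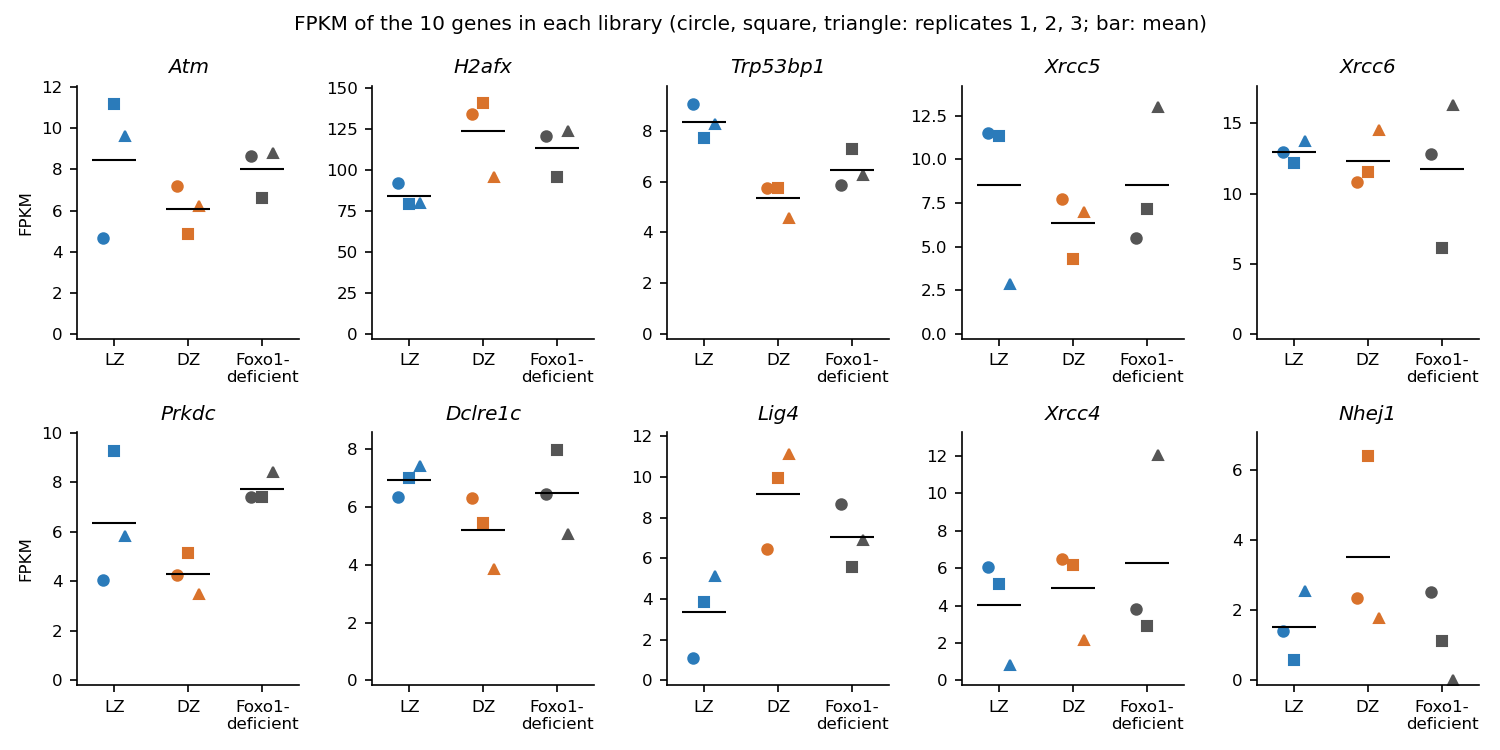
FPKM (vertical axis, from 0, with its own scale for each gene) of the 10 genes in the 9 libraries, by group; circles, squares and triangles are replicates 1, 2 and 3 and bars are group means, left out where a library is listed at 0. The DZ points of Lig4 and H2afx lie above all LZ points, those of Trp53bp1 and Dclre1c lie below them, and single libraries stand apart in Xrcc4, Xrcc5 and Nhej1.

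H2afx encodes the histone variant whose tail ATM marks at a break, and it lies on chromosome 9 from 44142798 to 44144156 in the mm9 build, which holds for all member positions given here. H2afx FPKM was 92.3, 79.4 and 80.1 in LZ, 134, 141 and 95.8 in DZ, and 121, 95.9 and 124 in Foxo1-deficient cells. Every DZ and every Foxo1-deficient library was above the highest LZ library, while those groups overlapped each other. From LZ to DZ the log2 difference was 0.54 (95% interval 0.15 to 0.92, adjusted p = 0.171), and against LZ it was 0.43 in Foxo1-deficient cells (0.04 to 0.81, adjusted p = 0.315). Against DZ it was -0.11 (-0.50 to 0.28, adjusted p = 0.803).

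The zone difference of H2afx depended on how the libraries were scaled. The median difference of all tested genes from LZ to DZ was -0.15 as deposited, 0.01 under quantile normalization and 0.04 under median centring. Under these, H2afx rose by 0.60 (adjusted p = 0.0466) and 0.73 (adjusted p = 0.0322), the only calls of any member under any of the 18 alternatives. Of 15 mitosis genes 5 rose from LZ to DZ and 0 fell, with a median of 0.84 over the 15; they were Cdc20, Ccnb2, Cenpa, Cdca8 and Nuf2, named after their values were seen. Of 15 S phase genes 0 passed from LZ to DZ (2 unadjusted, against 15.4% of all genes), with a median of 0.25. In Foxo1-deficient cells against LZ the medians were 0.43 (mitosis) and -0.09 (S phase), beside 0.43 for H2afx. Against DZ they were -0.39 and -0.42, beside -0.11 for H2afx. The part of the cell cycle in the H2afx values was not tested.

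Atm and Trp53bp1 complete the break response. Atm, the kinase, lies on chromosome 9 from 53245227 to 53344776. Its FPKM was 4.67, 11.2 and 9.61 in LZ, 7.18, 4.84 and 6.24 in DZ, and 8.64, 6.61 and 8.80 in Foxo1-deficient cells. LZ replicate 1 was the lowest of the 9 libraries and LZ replicate 2 the highest, so LZ spanned both other groups. The log2 differences were -0.36 from LZ to DZ (adjusted p = 0.651), -0.01 in Foxo1-deficient cells against LZ (adjusted p = 0.996) and 0.35 against DZ (adjusted p = 0.624). The zone difference of Atm was -0.69 without LZ replicate 1, -0.14 without LZ replicate 2 and -0.23 without DZ replicate 2, and the difference against DZ was 0.22 without the last.

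Trp53bp1 lies on chromosome 2 from 121022465 to 121097122. Its FPKM was 9.07, 7.71 and 8.27 in LZ, 5.75, 5.76 and 4.54 in DZ, and 5.88, 7.29 and 6.24 in Foxo1-deficient cells. The 3 groups did not overlap, with LZ highest and DZ lowest. The log2 difference from LZ to DZ was -0.56 (95% interval -1.06 to -0.07, adjusted p = 0.265). In Foxo1-deficient cells it was -0.33 against LZ (adjusted p = 0.571) and 0.24 against DZ (adjusted p = 0.655). The neighbouring entry Tubgcp4 shares 390 bp with Trp53bp1, and whether the counting used strand is not given, so reads there may belong to either gene.

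The Ku subunits came next. Xrcc6 lies on chromosome 15 from 81846799 to 81870514 and was 13.0, 12.2 and 13.8 in LZ, 10.8, 11.6 and 14.5 in DZ, and 12.8, 6.10 and 16.3 in Foxo1-deficient cells. Xrcc5, on chromosome 1 from 72353995 to 72441527, was 11.5, 11.3 and 2.86 in LZ, 7.72, 4.26 and 7.00 in DZ, and 5.50, 7.13 and 13.0 in Foxo1-deficient cells. All groups overlapped for both genes, and LZ replicate 3 had the lowest Xrcc5 value of all libraries beside a usual Xrcc6 value. The ratio of Xrcc6 to Xrcc5 was thus 4.81 in that library, against 1.08 and 1.13 in the other LZ libraries. It spanned 1.40 to 2.71 over the DZ libraries and 0.855 to 2.33 over the Foxo1-deficient ones. The log2 differences of the 2 genes ran from -0.23 to 0.34 over the 3 comparisons (adjusted p from 0.772 to 0.949). The 95% interval of Xrcc5 against DZ ran from -0.68 to 1.35.

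Prkdc, the kinase that Ku brings to the ends, lies on chromosome 16 from 15637959 to 15842332. Its FPKM was 4.04, 9.26 and 5.84 in LZ, 4.25, 5.15 and 3.48 in DZ, and 7.39, 7.41 and 8.43 in Foxo1-deficient cells. Each Foxo1-deficient library was above each DZ library, while LZ spread across both. Against DZ the log2 difference was 0.73 (95% interval 0.09 to 1.38, adjusted p = 0.241), beside a median of 0.12 over all tested genes. Against LZ it was 0.30 (adjusted p = 0.706), and from LZ to DZ it was -0.43 (adjusted p = 0.551). These rested on the LZ libraries: they were 0.0599 and -0.67 without LZ replicate 1, and 0.57 and -0.16 without LZ replicate 2.

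Dclre1c encodes the nuclease Artemis and lies on chromosome 2 from 3341403 to 3378389. Its FPKM was 6.34, 7.01 and 7.43 in LZ, 6.32, 5.46 and 3.84 in DZ, and 6.46, 7.97 and 5.07 in Foxo1-deficient cells. The DZ libraries were all below the LZ libraries, the closest pair at 6.32 and 6.34, and Foxo1-deficient cells overlapped both. The log2 difference from LZ to DZ was -0.37 (adjusted p = 0.563), or -0.20 without DZ replicate 3. The entry shares 5303 bp with Suv39h2, so its reads may hold some of that gene.

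The ligase complex held both the largest difference and the least certain values. Lig4 lies on chromosome 8 from 9970020 to 9976323. Its FPKM was 1.11, 3.85 and 5.12 in LZ, 6.45, 9.93 and 11.1 in DZ, and 8.65, 5.57 and 6.92 in Foxo1-deficient cells. Every LZ library was below every library of the other groups, and DZ and Foxo1-deficient cells overlapped. From LZ to DZ the log2 difference was 1.33 (95% interval 0.47 to 2.18, adjusted p = 0.129), and the ratio of mean FPKM was 2.73. Against LZ the difference in Foxo1-deficient cells was 1.00 (0.15 to 1.86, adjusted p = 0.279) and against DZ it was -0.32 (-1.18 to 0.53, adjusted p = 0.732). The lowest LZ library weighed on both: without LZ replicate 1 the differences were 0.87 (adjusted p = 0.255) and 0.55 (adjusted p = 0.542).

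Xrcc4, the partner that stabilizes ligase IV, lies on chromosome 13 from 89988519 to 90229213. It was 6.07, 5.13 and 0.815 in LZ, 6.47, 6.18 and 2.15 in DZ, and 3.84, 2.89 and 12.1 in Foxo1-deficient cells. Each group held a library that stood apart, low in LZ and DZ and high in Foxo1-deficient cells, and all groups overlapped. The log2 differences were 0.37, 0.55 and 0.18 (adjusted p from 0.747 to 0.915), and the interval from LZ to DZ ran from -0.95 to 1.68. Without Foxo1-deficient replicate 3 the difference against DZ was -0.35, and without LZ replicate 3 that from LZ to DZ was -0.25. The ratio of Lig4 to Xrcc4 spread from 0.183 to 6.29 (LZ), 0.997 to 5.16 (DZ) and 0.574 to 2.26 (Foxo1-deficient), so no order of the groups could be read from it.

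Nhej1 encodes XLF, which aligns the ends with XRCC4, and lies on chromosome 1 from 75013920 to 75121800. It was 1.41, 0.575 and 2.56 in LZ, 2.33, 6.40 and 1.77 in DZ, and 2.52, 1.13 and 0 in Foxo1-deficient cells. Its values rested on few fragments, an estimated 0 to 24 a library. A 0 in these tables can be a failed estimate. Entries flagged as failed had been left out, so the 0 of Nhej1 carried no such flag, and its origin was not tested. The log2 difference was 0.78 from LZ to DZ (adjusted p = 0.551) and, for Foxo1-deficient minus DZ, -1.06 (95% interval -2.23 to 0.11, adjusted p = 0.358), with the library at 0 in the fit. Without it the latter was -0.58 (adjusted p = 0.655). Without DZ replicate 2, the highest Nhej1 library, the 2 differences were 0.35 and -0.63.

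The spread between replicates is given beside the error of fragment counting, which is a floor that separate libraries usually exceed. The fragments behind each value were estimated from the Cufflinks confidence intervals, read as 2 SD of a Poisson count. Over 29 pairs of gene and group (Nhej1 in Foxo1-deficient cells was left out), the SD exceeded the counting error in 27, and exceeded it by more than 2 times in 21. Atm in LZ had a mean of 611 fragments, which gives a counting error of 4.05%, and an SD of 40.0% of its mean. Prkdc in LZ had 507 fragments and an SD of 41.5%. Over all tested genes the median SD was 26.3% (LZ), 23.7% (DZ) and 27.5% (Foxo1-deficient) of the mean. Trp53bp1, at 8.21%, 13.1% and 11.3%, lay below that in each group, and Xrcc4, at 70.0%, 48.9% and 80.6%, lay above it.

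The H2afx values lay above the upper bound of their own interval in all 9 libraries, at 1.12 to 1.14 times the centre of the interval, a factor that hardly differed between groups.

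**Figure D2:**
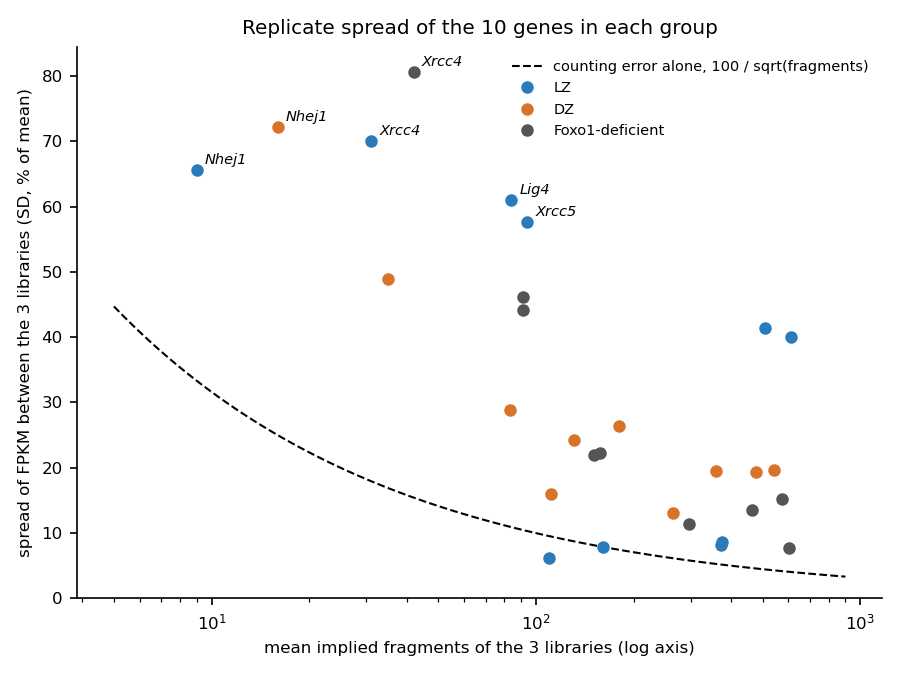
Spread of FPKM between the 3 libraries of a group (SD as a percentage of the mean, vertical axis) against the mean estimated fragments (log axis) of each gene, coloured by group; the dashed line is counting error alone. Points above 50% are named, with the Foxo1-deficient value of Nhej1 left out: 27 of the 29 points lie above the line, and Atm and Prkdc in LZ stand at 40.0% and 41.5% with 611 and 507 fragments.

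As a list, the members did not lean one way between the zones. From LZ to DZ 4 differences were positive and 6 negative, with a median of -0.15 beside -0.15 for all tested genes. The zones' libraries did not overlap for 4 of the 10, against 22.3% of all genes. DZ lay above LZ for Lig4 and H2afx (5.16% of all genes did) and below it for Dclre1c and Trp53bp1 (17.1%). Against LZ, 5 differences of Foxo1-deficient cells were positive and 5 negative, with a median of 0.05 against -0.02 for all genes. For 3 of the 10 the groups did not overlap, against 17.5% of all genes: Lig4 and H2afx lay wholly above LZ (8.12% of all genes did) and Trp53bp1 wholly below (9.37%). Against DZ, 6 were positive and 4 negative, with a median of 0.21 against 0.12, and the groups did not overlap for 2 of the 10, against 23.1% of all genes. These were Prkdc and Trp53bp1, wholly above DZ (17.3%), and 0 members lay wholly below (5.78%). Both comparisons with Foxo1-deficient cells use the same 3 libraries, and those with LZ share the LZ libraries.

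**Figure D3:**
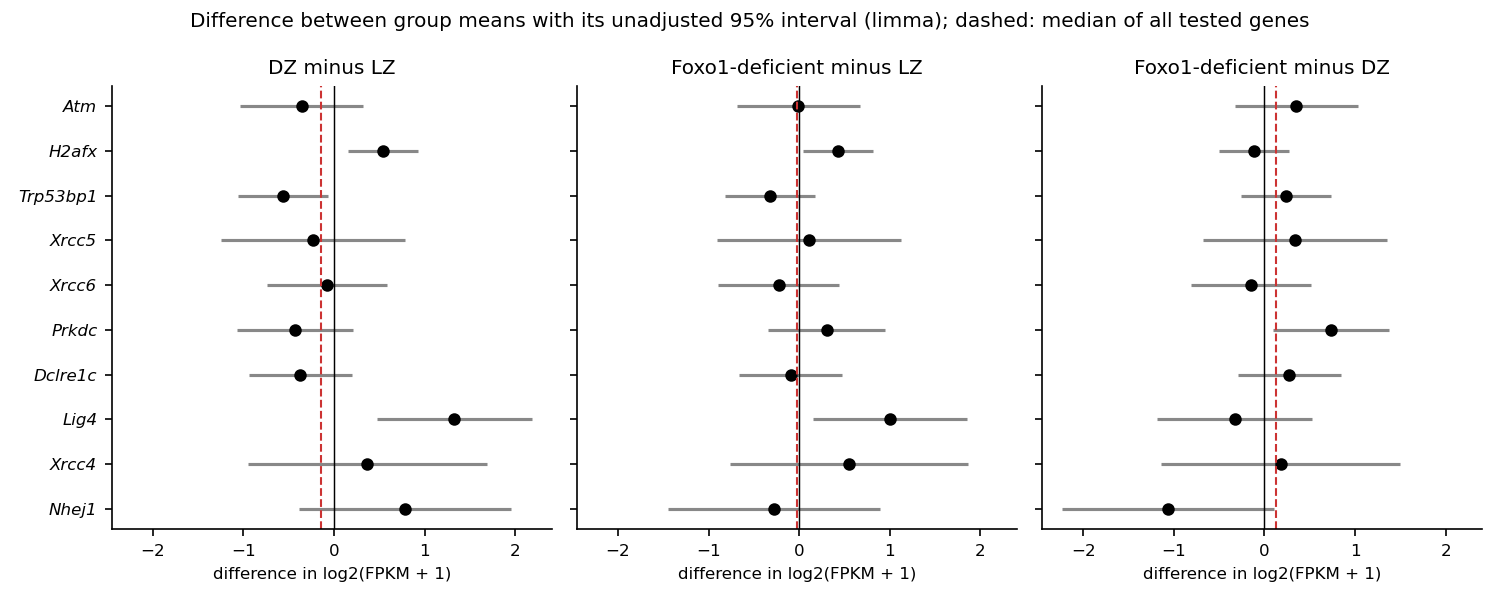
Difference of group means on the log2(FPKM + 1) scale (horizontal axis) for the 10 genes, with unadjusted 95% intervals from limma; the dashed line is the median of all tested genes in that comparison. Intervals of Lig4, H2afx and Trp53bp1 leave out 0 from LZ to DZ, those of Lig4 and H2afx against LZ and that of Prkdc against DZ, and no difference passed after adjustment.

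Markers of other blood cells were higher in the Foxo1-deficient libraries, although the gate took B220+ NP+ GL7+ CD38- cells. Of 10 myeloid markers 8 were tested and all 8 rose against both zones. Their summed FPKM was 162 to 319 in Foxo1-deficient libraries, 0 to 0.538 in LZ and 0 to 4.93 in DZ. In LZ 7 of the 10, among them S100a8, S100a9 and Tyrobp, were at 0 in every library, in DZ 5, and in Foxo1-deficient cells only Cd14. Of the erythroid and platelet markers 6 of 7 were found and all 4 that were tested rose as well, with sums of 166 to 544 against 21.9 to 44.4 in LZ and 12.9 to 21.7 in DZ. The sum of the 5 plasma cell markers ran from 124 to 151 (LZ), 189 to 289 (DZ) and 233 to 355 (Foxo1-deficient). Most of it was Igj, at 70.2 to 291 over the 9 libraries. Of 4 tested 1 rose from LZ to DZ and 1 against LZ, Igj in both. From LZ to DZ 2 of the 4 differences were positive and 2 negative, with Irf4 at -1.44 (adjusted p = 0.0789). The sum of the 8 T cell markers ran from 26.6 to 31.5 (LZ), 11.4 to 20.1 (DZ) and 14.7 to 25.5 (Foxo1-deficient), most of it Lck, at 10.8 to 27.4 over the 9 libraries, while the defining Cd3e, Cd3g and Cd4 were at 0 in all of them. Of the 4 stromal and vessel markers Cxcl13, Col1a1 and Col3a1 were at 0 in all 9 libraries. Pecam1 of blood vessels was at 7.44 to 11.7 (LZ), 4.22 to 5.10 (DZ) and 8.69 to 16.5 (Foxo1-deficient), and it rose by 1.16 against DZ (adjusted p = 0.0485). The sum of the 10 germinal center B cell markers ran from 1879 to 2090 (LZ), 1573 to 1876 (DZ) and 1981 to 2335 (Foxo1-deficient), and all 10 were at 1 or more in every library. The members are expressed in many dividing cells, and neither the source of the marker RNA nor its part in the members' Foxo1-deficient values was tested. In bulk RNA, fewer cells of a type and less RNA per cell cannot be told apart.

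Other genes of the pathway were taken from lists chosen by role. Of 16 genes of break sensing and signalling, 0 passed in any comparison. The medians were -0.08, 0.06 and 0.06 from LZ to DZ, against LZ and against DZ. In that order 2, 1 and 3 genes had an unadjusted p under 0.05, against 15.4%, 13.4% and 16.3% of all genes. Chek2, a checkpoint kinase downstream of ATM, was 13.3, 8.28 and 7.72 in LZ, 3.64, 5.51 and 3.86 in DZ, and 9.96, 6.14 and 11.2 in Foxo1-deficient cells. DZ lay wholly below both other groups, with log2 differences of -0.99 from LZ (adjusted p = 0.141) and, for Foxo1-deficient minus DZ, 0.90 (adjusted p = 0.155). For Mad2l2, which acts with 53BP1 against end resection, the zone difference (DZ minus LZ) was -0.52 (adjusted p = 0.503) and that against DZ 0.86 (adjusted p = 0.22). Rif1, the partner of 53BP1 in end protection, was 10.3, 12.1 and 13.2 in LZ, 13.1, 12.2 and 13.4 in DZ, and 16.5, 17.2 and 19.0 in Foxo1-deficient cells, where it lay above all others (0.53 against LZ, adjusted p = 0.218). Rad50, of the complex that first binds broken ends, differed by 0.43 against LZ (adjusted p = 0.489).

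End processing and other joining showed no call either. Of 15 genes 14 were tested, and Dntt, the polymerase of immature lymphocytes, was at 0 in all libraries. None of the 14 passed (0, 1 and 3 unadjusted, against 15.4%, 13.4% and 16.3% of all genes), with medians of -0.11, 0.06 and 0.18. For Polm, a polymerase of end joining, the zone difference was -0.68 (adjusted p = 0.36), and Foxo1-deficient cells stood 0.76 above DZ (adjusted p = 0.281). Aptx, which clears blocked DNA ends, was 0.744, 1.41 and 0.270 in DZ and 2.19, 2.70 and 2.33 in Foxo1-deficient cells, and differed from LZ by -0.56 in DZ (adjusted p = 0.459) and 0.40 in Foxo1-deficient cells (adjusted p = 0.637). Against DZ its difference was 0.96 (adjusted p = 0.16). Aplf, which helps assemble the ligase complex, differed by -0.39 against LZ (adjusted p = 0.588).

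Homologous recombination, the repair route that uses a sister chromatid, held the single call among the pathway genes. Rad52, which anneals single strands, was 6.76, 3.02 and 4.05 in LZ, 1.48, 1.57 and 0.914 in DZ, and 5.52, 4.83 and 5.32 in Foxo1-deficient cells. All 3 DZ libraries were below all others, and relative to DZ Rad52 rose by 1.43 in the Foxo1-deficient group (adjusted p = 0.0329). From LZ to DZ the difference was -1.23 (adjusted p = 0.081). The Rad52 call rested on an estimated 5 to 57 fragments a library and was lost under 11 of 18 alternatives, among them the fits without any 1 DZ or any 1 Foxo1-deficient library (adjusted p up to 0.118). The other 11 of the 12 genes did not pass. From LZ to DZ and against LZ 0 of 12 passed (1 and 0 unadjusted, against 15.4% and 13.4% of all genes). For Rad51c, which acts in strand exchange, the zone difference was 0.43 (adjusted p = 0.676), and Foxo1-deficient cells stood 0.86 above LZ (adjusted p = 0.373), where Exo1, a resection nuclease, differed by -0.38 (adjusted p = 0.624).

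The genes that make the breaks were set beside those that mend them. Of 8 such genes 0 passed (4, 2 and 0 unadjusted, against 15.4%, 13.4% and 16.3% of all genes). From LZ to DZ the count was 1 under quantile normalization, median centring and voom weights. Against LZ it was 1 under quantile normalization. Apex2, an endonuclease that cuts at sites where a base was lost, was 6.09, 9.71 and 7.72 in LZ, 3.76, 2.79 and 3.78 in DZ, and 3.07, 4.20 and 2.89 in Foxo1-deficient cells. It lay below LZ in both, by -0.98 (adjusted p = 0.114) and -1.0027 (adjusted p = 0.115). Its relative Apex1 differed by -1.18 against LZ (adjusted p = 0.45) and -1.33 against DZ (adjusted p = 0.328), with 3.83, 11.2 and 0.326 in the Foxo1-deficient libraries. Without replicate 3 of that group the Apex1 values were -0.34 and -0.49, and without replicate 2 they were -1.94 and -2.09.

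**Figure D4:**
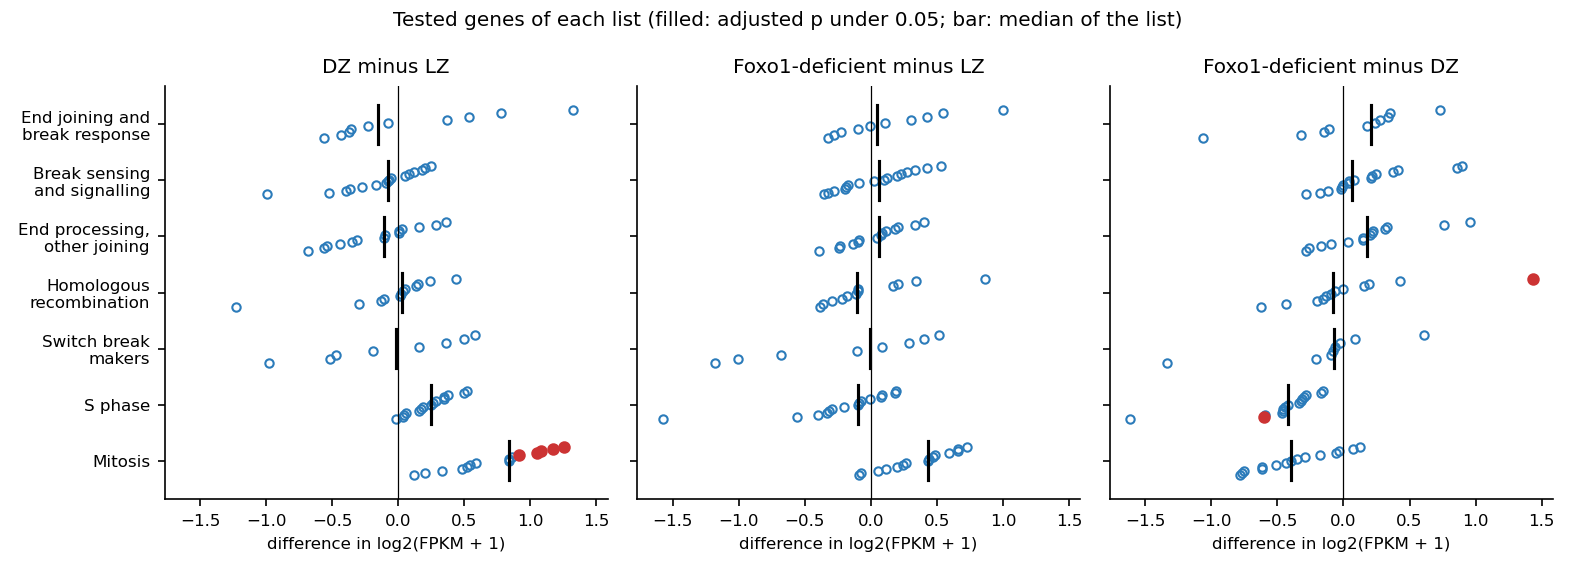
Differences of group means on the log2(FPKM + 1) scale (horizontal axis) for the tested genes of the member list, the 4 other pathway lists and 2 cell cycle lists; open circles did not pass, filled circles had an adjusted p under 0.05, and bars are list medians. The filled points are 5 mitosis genes from LZ to DZ, and Rad52 and the S phase gene Mcm6 in Foxo1-deficient cells against DZ.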

How the data were processed

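RNA was sequenced from sorted mouse germinal center B cells in 9 libraries (NEBNext Ultra kit, per the labels' protocols). Cufflinks 2.1.1, TopHat2 2.0.8 and the mm9 build are listed in the submitters' processing notes. The deposited files hold FPKM and its confidence interval for each gene, 1 file a library, per the file headers; the annotation, the total used for scaling and the use of strand are not given in the sources used here. Locus starts were counted from 0 and are printed from 1.

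Of 23700 entries, 716 with a repeated symbol and 6 with a failed estimate were left out, and 22978 were left. Groups were taken from the sample titles. Log2(FPKM + 1) was fitted with limma 3.58.1 in R 4.3.3, with an intensity trend, all 9 libraries and no replicate block, over the 10004 genes that reached an FPKM of 1 in 3 or more libraries; p-values are two-sided and Benjamini-Hochberg adjusted, and the log2 scale understates the change of low genes. The fit was run on simulated data with independent noise and known changes in 200 genes. These data held no differences in scaling between libraries, so that run does not test for such differences. Depth was estimated from the intervals only. Alternatives were other pseudocounts (0.1 and 0.5), no filter, quantile normalization, median centring, a replicate block, only the compared groups, voom weights and each library left out. Named genes were all members, the pathway genes that passed or, where none did, the 2 with the largest difference in a list, and Foxo1. The members and lists were chosen with earlier results of these data known. Of the genes this rule names, 2 are not reported here.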

Additional observations from a re-analysis of the deposited data

How the results depend on the processing

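Of 30 differences (10 members in 3 comparisons), 29 passed under none of the 18 alternatives and 18 kept their direction under all of them; the exception among calls was H2afx from LZ to DZ, so the count of members called went from 0 to 1 under quantile normalization and to 1 under median centring. Without 1 library each, the member count stayed at 0 in all 3 comparisons. For the other 12 the direction turned under at least 1 alternative, and the cause was not tested: Xrcc6 from LZ to DZ was 0.0735 (quantile normalization), 0.11 (median centring) and 0.0543 (voom weights), Xrcc4 against DZ was -0.0104 (quantile normalization), and Atm against LZ was 0.0005 (pseudocount 0.1) and 0.0027 (median centring). Without 1 library each, differences from LZ to DZ ran from -0.25 to 0.77 for Xrcc4, -0.79 to 0.0554 for Xrcc5 and -0.19 to 0.0019 for Xrcc6. Against LZ they ran from -0.34 to 0.21 for Atm, -0.23 to 0.0473 for Dclre1c, -0.71 to 0.20 for Nhej1, -0.0731 to 0.91 for Xrcc4, -0.45 to 0.39 for Xrcc5 and -0.50 to 0.15 for Xrcc6. Against DZ they ran from -0.35 to 0.52 for Xrcc4, -0.42 to 0.23 for Xrcc6 and -0.28 to 0.0065 for H2afx. The libraries whose absence turned a sign were LZ replicates 1 and 2 (Xrcc5 from LZ to DZ), LZ replicate 2 (Atm), LZ replicate 3 (Xrcc4, Xrcc5, Nhej1, Atm), DZ replicate 1 (Xrcc6), DZ replicate 3 (Xrcc4), Foxo1-deficient replicate 2 (Xrcc6, Atm, H2afx) and Foxo1-deficient replicate 3 (Xrcc4, Xrcc5, Nhej1, Dclre1c). Over all genes, the 194 calls from LZ to DZ became 68 with no filter, 109 with no filter but without genes at 0 in every library (an alternative chosen after seeing the data) and 122 with only the compared groups. The 156 against LZ became 99 (pseudocount 0.1), 59 (no filter) and 58 (only the compared groups), and the 285 against DZ became 166 (no filter). Without 1 library each they ran from 73 to 215, 41 to 141 and 119 to 245. Whether replicate numbers pair the libraries was not settled. Deviations of same-numbered libraries correlated at -0.067 to 0.075 and those of others at -0.112 to 0.05. All values above 0.05 joined same-numbered libraries, but not every library correlated best with its own number. With the replicate number as a block the counts were 161, 137 and 221, no member passed, and the Rad52 call was lost (adjusted p = 0.0538). Among the members depth limits Nhej1 (a median of 10 estimated fragments) and Xrcc4 (37) most.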
